A study of Drosophila melanogaster with 36 samples.

Results

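Germline piRNA sources of Drosophila melanogaster that kept small RNA after loss of Rhino were taken from a table of 139714 bins of 1 kb on the dm3 assembly. A bin was a member if it lay in euchromatin outside chromosome 4 and outside the major piRNA clusters. It also had to have a small RNA signal of at least 10 in the control, a ratio of Piwi-bound somatic small RNA to control below 0.125, and a ratio of rhino knockdown to control small RNA above 0.2. The rule gave 871 bins, which are 0.623% of all bins and 0.762% of the 114327 euchromatic bins outside chromosome 4 and the major clusters. Of these, 667 overlapped annotated exons and 204 did not. The bins were thus chosen by their small RNA in the control, in rhino knockdown and in the Piwi-bound somatic library, and those values are given only as a description.

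The ovaries came from adult females aged 4 to 6 days, kept at 25 degrees C, in which piwi or one of the genes rhino, deadlock and cutoff had been knocked down in the germline, or which carried a control germline knockdown. Small RNA of 18 to 29 nt and total RNA depleted of ribosomal RNA (RNA-seq) were measured after each knockdown but that of piwi, and in the control. Nascent RNA from nuclear run-on (GRO-seq) and RNA polymerase II (Pol II) chromatin immunoprecipitation (ChIP) were measured in rhino knockdown and the control, and ChIP of trimethylated lysine 9 of histone H3 (H3K9me3) in rhino knockdown, piwi knockdown and the control. Rhino ChIP covered all 4 knockdowns and the control, and small RNA pulled down with Piwi after piwi knockdown in the germline served as the somatic measure. Deadlock ChIP and Cutoff ChIP are described for the control only. The labels used here do not name the control target, the driver or the hairpins, and ovaries also hold somatic follicle cells. In such bulk samples, fewer germline cells and less RNA per germline cell cannot be told apart.

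PIWI-interacting RNAs (piRNAs) are small RNAs that guide Piwi-family proteins to transposons and to other transcripts. In the fly germline many are cut from long transcripts of clusters bound by Rhino, an HP1-family chromodomain protein, with its partners Deadlock and Cutoff. Others come from loci that do not need Rhino, among them clusters transcribed from 1 strand and the transcripts of ordinary genes. Piwi also guides H3K9me3 to target loci in the nucleus.

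Signals are reads scaled to a library total and divided by the mappability index, which is the share of the bin where reads can be placed uniquely. Control RNA-seq came as 2 libraries. Every other group had 1 library or, for H3K9me3, input, and Rhino ChIP of piwi knockdown and control, a mean that the authors formed from 2 libraries. Outside RNA-seq no comparison therefore has a replicate check, and differences between groups of bins or libraries were not tested. Library totals behind the scaling were 4190000 to 6340000 reads for the small RNA of the 3 knockdowns and the control, 6660000 to 7070000 for GRO-seq, 19040000 to 23820000 for Pol II and 36290000 to 169660000 for RNA-seq. The Piwi-bound somatic library had a total of 44000000, of which the bins held 14.6%, against 89.7% in control small RNA. The somatic ratio of the rule, and so the germline label, depends on these totals. Exon members had a median of 29 Piwi-bound reads and 69 control reads. For the averaged columns no depth can be given. The labels name no separate cultures or cages, so the spread between the control RNA-seq libraries may be technical.

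Mappability split the non-exon bins. The median index was 1 in the exon members and 0.052 in the non-exon members. The authors' window selection, whose lowest index was 0.1, held 636 of the 667 exon members but only 82 of the 204 non-exon members. The median control small RNA count was 69 reads per exon bin, 62.5 per non-exon bin inside the selected windows and 5 per non-exon bin outside them. In the 122 outside bins, whose median index was 0.026, a signal of 10 can thus stand for a single read, and no GRO-seq read was counted in 80.3% of them in the control. Results on non-exon bins are therefore given for the 82 bins inside the windows wherever depth matters.

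**Figure D1:**
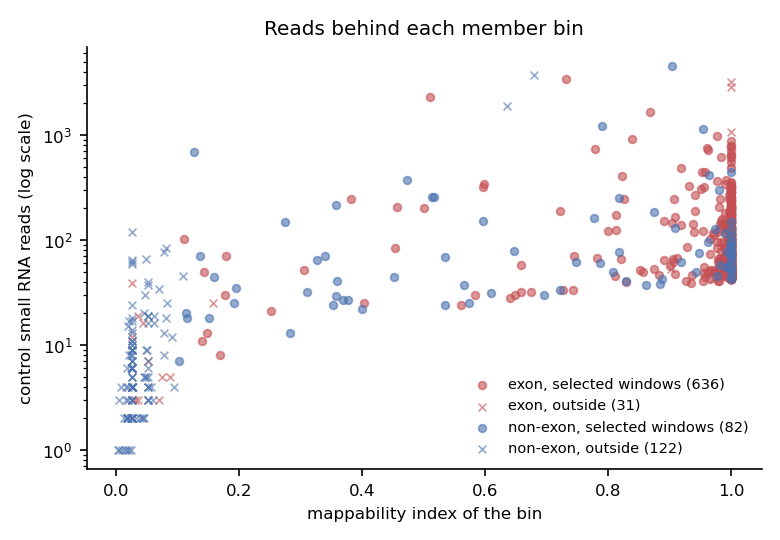
Control small RNA reads (log scale) against the mappability index for each of the 871 member bins, by exon class and by the authors' window selection. The 122 non-exon bins outside the windows sit mostly at a low index, with a median of 5 reads, and the 636 exon bins inside them mostly near an index of 1.

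The authors' deposited table carries its own list of Rhino-independent source loci with 1662 bins, of which 869 are heterochromatic. This list held 716 of the 871 members (82.2%). Its bins keep within the limits of the rule, with a lowest control small RNA of 10.0016. Their lowest rhino ratio was 0.203 and their highest somatic ratio 0.1249. The overlap thus follows from like limits on the same values and is no independent support. Of the 155 members it lacked, 153 lay outside the authors' windows, and the other 2 were on the authors' list of Rhino-dependent source loci. Members were spread over the 5 large chromosome arms, with 202 bins on X, 201 on 3R, 183 on 3L, 162 on 2R and 123 on 2L. Joined over gaps of up to 3 kb within an exon class, they formed 598 stretches, of which 423 were single bins and 13 held at least 5 members. The longest held 9 members.

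On the deposited scale, median small RNA of the exon members was higher in the 3 knockdowns than in the control, and that of the non-exon members was lower. In exon members the median signal was 24.8 in rhino, 27.4 in deadlock and 27.1 in cutoff knockdown, against 17.5 in the control. In the 82 non-exon members inside the windows it was 14.9 in rhino, 10.6 in deadlock and 13.7 in cutoff knockdown, against 21.0 in the control. Deadlock and cutoff knockdown were not part of the rule, but they share its control library, so their values are a description too.

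**Figure D2:**
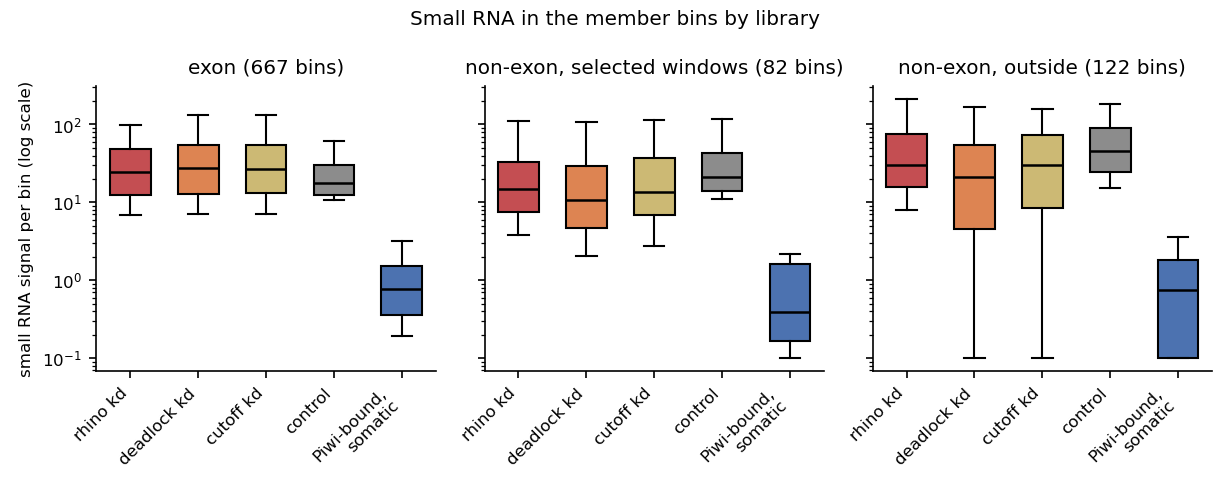
Small RNA signal per member bin (log scale) by library, for 667 exon bins, 82 non-exon bins inside the authors' windows and 122 outside them. Boxes span the quartiles with the median, and whiskers the 10th to the 90th percentile of bins. On the deposited scale, exon medians are higher in the 3 knockdowns (24.8 to 27.4) than in the control (17.5), and non-exon medians inside the windows are lower (10.6 to 14.9, against 21.0).

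As ratios to the control, the exon members had medians of 1.19 in rhino, 1.26 in deadlock and 1.29 in cutoff knockdown. The non-exon members inside the windows had 0.571, 0.480 and 0.568 in the same knockdowns. Exon bins of somatic piRNA sources, which the germline knockdowns do not target, had medians of 1.29, 1.35 and 1.35, which were at least as high as those of the exon members. Somatic non-exon bins inside the windows had 1.02, 0.904 and 1.01. Small RNA signals are shares of a library, and the bins held 41.3% to 45.2% of the library total in the knockdowns, against 89.7% in the control. Rescaling the libraries to equal reads over flamenco, a somatic cluster, moved the median log2(signal + 1) difference of exon members to 0.13 in deadlock knockdown (95% interval over bins 0.044 to 0.27), against 0.31 as deposited, and to 0.33 in cutoff knockdown, against 0.35. With summed signal in place of reads, a form computed before the reads form, the deadlock value came to -0.016 (-0.098 to 0.13), so the direction in deadlock knockdown turns with the scaling. Members held 8.59% of the bin reads in rhino, 9.0% in deadlock and 9.09% in cutoff knockdown, against 2.89% in the control.

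The threshold of 0.2 that the rule set for rhino knockdown was also passed by 791 members (90.8%) in deadlock knockdown and by 823 (94.5%) in cutoff knockdown. Over all 2005 germline piRNA bins of euchromatin, which include the Rhino-dependent ones, the shares were 43.4% in deadlock and 44.7% in cutoff knockdown. Both were passed by 638 of the 667 exon members (95.7%) and by 58 of the 82 non-exon members inside the windows (70.7%). The shares were 92.9% and 88.9% over all euchromatic bins of these classes, whose median control small RNA reads are 2 and 0. In somatic bins they were 99.9% and 97.2%. The deadlock value was within 2-fold of the rhino value in 91.9% of exon members and in 68.3% of non-exon members inside the windows, and the cutoff value in 97.6% and 95.1%. Over all such euchromatic bins the shares were 96.7% and 98.8% for deadlock and 98.9% and 99.5% for cutoff knockdown. Somatic bins had 98.6% and 95.7% for deadlock and 99.6% in both classes for cutoff knockdown. The rule bounds the rhino value from below and the other knockdowns not, so no difference from the rhino value is read from these shares.

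On the same scale, knockdown minus control had a median of 0.31 in deadlock knockdown (95% interval over bins 0.23 to 0.46) and 0.35 in cutoff knockdown (0.23 to 0.50) for exon members. Among the 285 exon members with a control signal of at least 20, these were 0.22 (0.11 to 0.31) and 0.13 (-0.058 to 0.29), and the cutoff interval includes 0. For the non-exon members inside the windows the medians were -0.98 (-1.41 to -0.60) and -0.79 (-1.22 to -0.37). Counting bins whose mean signal in knockdown and control was at least 1, exon members were at least 2-fold higher in 189 bins (28.3%) in deadlock knockdown, beside 27.8% of all euchromatic exon bins. They were at least 2-fold lower in 89 bins (13.3%), beside 6.26%. Non-exon members inside the windows were at least 2-fold lower in 40 of 82 bins (48.8%), beside 30.3% of all such euchromatic bins, and higher in 5 (6.10%), beside 5.69%. In cutoff knockdown, 202 exon members (30.3%) were at least 2-fold higher, beside 23.2%, and 83 (12.4%) lower, beside 6.40%. Of the non-exon members inside the windows, 36 (43.9%) were lower, beside 28.9%, and 9 (11.0%) higher, beside 4.35%. The share of exon members with a 2-fold gain in deadlock knockdown was thus near that of all exon bins.

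The values next to each limit show how the rule cut. The member with the lowest control small RNA was the non-exon bin X:12277001-12278000, with 8.53 in rhino knockdown and 10.04 in the control at a mappability index of 0.024. Just below the limit was the exon bin 3L:6742001-6743000, with 84.8 in rhino knockdown and 9.99 in the control. The somatic ratio next to its limit was 0.1249 in the member 2R:8808001-8809000 and 0.1252 in the excluded bin 2R:1970001-1971000, both in exons. The lowest ratio of rhino knockdown to control among members was 0.202, in the exon bin X:6164001-6165000, with 3.54 in rhino knockdown and 17.5 in the control. The highest ratio below the limit was 0.1997, in the non-exon bin X:4723001-4724000, with 147 in rhino knockdown and 738 in the control.

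The exon stretches with the most small RNA in a bin were on X, 3L and 3R. X:18024001-18027000 had 3 members, with a highest bin of 1473 in rhino, 1147 in deadlock and 1795 in cutoff knockdown, against 1123 in the control. Its summed reads scaled to library totals were 1.37 times the control in rhino, 1.11 times in deadlock and 1.66 times in cutoff knockdown (exact 95% intervals 1.31 to 1.42, 1.06 to 1.15 and 1.60 to 1.72, covering counting error only). X:12665001-12667000 had ratios of 1.53 in rhino, 2.04 in deadlock and 2.23 in cutoff knockdown. The single bin 3L:19677001-19678000 had 1.17, 1.08 and 1.27. Mean RNA-seq in X:18024001-18027000 was 9.27 in rhino, 9.999 in deadlock and 11.1 in cutoff knockdown, against 10.5 and 18.2 in the control libraries.

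Other exon stretches stood apart in input. 3L:8720001-8726000 had 5 members outside the windows, with a mean Pol II signal of 3920 in rhino knockdown and 3248 in the control, but its input was 195, against a median input of 8.71 over all bins. Its small RNA was 1.09 times the control in rhino, 0.949 times in deadlock and 1.22 times in cutoff knockdown. X:8373001-8381000, also outside the windows, had an input of 49.1 and a mean Pol II signal of 1025 in rhino knockdown and 1108 in the control. These stretches carry 1 and 2 bins in the authors' Rhino peak list, and at 3L:8720001-8726000 the mean Rhino signal of 195 in rhino knockdown was above the 144 of the control. The part of the high input in these values was not tested, nor was whether these stretches are germline sources.

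The largest gain in an exon stretch named for its length or small RNA was at X:11789001-11794000. Its 5 members had a mean small RNA signal of 121 in rhino, 164 in deadlock and 183 in cutoff knockdown, against 16.5 in the control. Scaled reads were 7.38 times the control in rhino knockdown (6.60 to 8.27), 9.96 times in deadlock (8.92 to 11.2) and 11.1 times in cutoff knockdown (9.99 to 12.5). Mean RNA-seq in the stretch was 34.3, 32.4 and 37.2 in the same knockdowns, against 37.3 and 83.2 in the control libraries, so its RNA did not exceed either control library. A single exon bin, 3R:16114001-16115000, had 198 in rhino, 302 in deadlock and 293 in cutoff knockdown, against 12.1 in the control. X:12625001-12626000 had 111, 224 and 180, against 12.4.

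The other long exon stretches had ratios between 0.595 and 2.74 in the 3 knockdowns. 2R:10749001-10757000 (6 members) had 2.05 in rhino, 2.50 in deadlock and 2.74 in cutoff knockdown, and 3L:19876001-19881000 (5 members) 1.89, 2.59 and 2.70. 3L:827001-832000 (5 members) had 1.60, 2.02 and 1.91, 3L:235001-246000 (5 members) 1.85, 1.84 and 2.28, and X:1446001-1452000 (6 members) 1.55, 1.67 and 1.97. 3L:8983001-8989000 (6 members) stayed near 1, at 1.14, 1.29 and 1.30. 3R:18266001-18272000 (5 members) was below the control in all 3, at 0.595 in rhino, 0.734 in deadlock and 0.633 in cutoff knockdown. X:14171001-14182000 (8 members, median mappability 0.154) had 0.860, 0.612 and 0.877 on 226, 147 and 296 reads, against 223 in the control.

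The non-exon loci with the most small RNA were 5 single bins or short stretches. X:8001-10000, near the left end of the X assembly, held 2 members that lie in both the Rhino and the H3K9me3 peak list of the authors. Its small RNA was 0.635 times the control in rhino knockdown (0.610 to 0.661), 1.58 times in deadlock (1.53 to 1.64) and 0.549 times in cutoff knockdown (0.528 to 0.571). Its mean Rhino signal was 78.4 in rhino, 76.9 in deadlock, 84.4 in cutoff and 145 in piwi knockdown, against 358 in the control, with an input of 56.2. The bin 2R:7292001-7293000 had small RNA ratios of 1.23, 0.797 and 0.494 in rhino, deadlock and cutoff knockdown, a GRO-seq signal of 298 in rhino knockdown and 682 in the control, and RNA-seq of 0.243, 0.0444 and 0.0361, against 0.1198 and 0.193 in the control libraries. It thus had many nascent reads and almost no RNA-seq reads in any library.

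The other 3 bins with very high non-exon signal had low mappability. 3R:24584001-24585000 (mappability index 0.127) had 1054 reads in rhino, 1412 in deadlock and 1890 in cutoff knockdown, against 691 in the control, and ratios of 1.29, 1.90 and 1.81. X:14446001-14447000 had 53, 86 and 149 reads, against 120, and 3R:98001-99000 had 28, 12 and 37, against 65. Both bins have an index of 0.026. RNA-seq at 3R:98001-99000 was 298, 130 and 377 in the 3 knockdowns, against 2.79 and 4.25 in the control libraries.

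The longest stretch, 3L:22744001-22756000, had 9 non-exon members, 8 of them inside the windows, and lay 244 kb from the nearest bin marked heterochromatic. Its scaled small RNA reads were 1.29 times the control in rhino knockdown (1.19 to 1.40), 0.398 times in deadlock (0.355 to 0.446) and 1.09 times in cutoff knockdown (1.00 to 1.17). The deadlock value lay below both other knockdowns in each of the 9 bins. In its first 4 bins small RNA was higher in rhino knockdown than in the control, with 77.2 against 49.9 in the first bin and 68.3 against 18.95 in the fourth. In 3L:22750001-22751000 and 3L:22752001-22753000 it was lower, with 6.98 against 15.9 and 13.6 against 31.0. RNA-seq there stayed under 1 in rhino, deadlock and cutoff knockdown in the 8 bins inside the windows. The bin with the most control small RNA, 3L:22754001-22755000, had a Rhino signal of 30.3 in the control, with an input of 10.2. Rhino signal in that bin was 6.60 in rhino, 8.84 in deadlock, 13.2 in cutoff and 24.6 in piwi knockdown. The stretch holds no member in the authors' Rhino peak list. Its bins starting at 22749001, 22750001, 22752001 and 22754001 are H3K9me3 peaks of the authors, and in these 4 bins H3K9me3 was 7.93 to 14.8 in piwi knockdown and 17.6 to 21.9 in rhino knockdown, against 20.5 to 33.0 in the control.

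The exon members had high RNA-seq signal in the control. Mean control RNA-seq had a median of 46.7 in exon members, beside 1.63 over all 51370 euchromatic exon bins, and 351 of 667 (52.6%) lay in the top 10th of those bins. It was at least 100 in 225 members and below 1 in 43. The top 10th of exon bins also held 246 members (36.9%) by GRO-seq and 194 (29.1%) by Pol II. Exon bins of somatic piRNA sources had high signal too. Control RNA-seq was between 10 and 100 in 295 of the 667 exon members (44.2%) and in 1021 of the 1681 somatic exon bins (60.7%), and at least 100 in 33.7% of members and 17.4% of somatic bins. Median control GRO-seq was 16.6 in exon members and 17.1 in somatic exon bins. Non-exon members inside the windows had a median control RNA-seq of 0.421, and 61 of 82 were below 1. Across exon members, Spearman's rho was 0.81 between Pol II and GRO-seq and 0.72 between GRO-seq and RNA-seq, but 0.18 between small RNA and RNA-seq and 0.22 between small RNA and GRO-seq (667 bins of the same control libraries, neighbouring bins not independent).

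RNA-seq of exon members differed little between knockdowns and control. The median signal was 36.8 in rhino, 36.0 in deadlock and 40.0 in cutoff knockdown, against 39.7 and 54.1 in the control libraries. On the log2(signal + 1) scale the median change against the mean of the controls was -0.11 in rhino, -0.16 in deadlock and -0.10 in cutoff knockdown, while the second control library lay 0.22 above the first. Against the first control library alone the medians were 0.02 in rhino, -0.03 in deadlock and 0.02 in cutoff knockdown, and against the second -0.17, -0.21 and -0.20. Somatic exon bins had medians of -0.24, -0.27 and -0.21 against the mean of the controls. At least 2-fold lower were 67 of 664 exon members in rhino (10.1%, beside 4.87%), 102 of 664 in deadlock (15.4%, beside 8.00%) and 60 of 663 in cutoff knockdown (9.05%, beside 5.43%). At least 2-fold higher were 11 (1.66%, beside 0.490%), 21 (3.16%, beside 0.95%) and 9 (1.36%, beside 0.370%) in the same knockdowns. The 2 control libraries differed from each other by a median absolute log2 value of 0.54 in exon members, beside 0.21 over all euchromatic exon bins. The part of this spread in the 2-fold shares was not tested. All 3 knockdowns lay below both controls in 135 of 663 exon members (20.4%), beside 21.0% of all euchromatic exon bins. All 3 lay above both controls in 121 (18.3%), beside 11.4%.

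**Figure D3:**
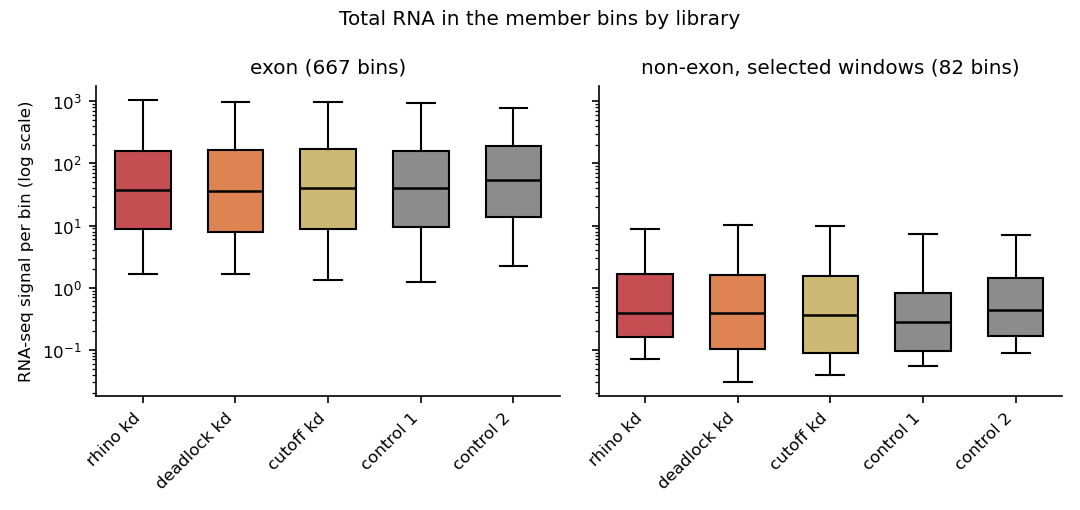
RNA-seq signal per member bin (log scale) in the 3 knockdown libraries and the 2 control libraries, for 667 exon bins and 82 non-exon bins inside the authors' windows. Boxes span the quartiles with the median, and whiskers the 10th to the 90th percentile of bins. The exon medians span 36.0 to 40.0 in the knockdowns, against 39.7 and 54.1 in the controls.

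A limma-trend fit over 66222 bins with the 5 RNA-seq libraries called 0 bins in each knockdown (0% of bins in each direction) at a Benjamini-Hochberg adjusted p of 0.05, with 834 members tested. Median fitted log2 changes of the 663 tested exon members were -0.091 in rhino, -0.15 in deadlock and -0.078 in cutoff knockdown. Over all tested euchromatic exon bins they were -0.082, -0.12 and -0.10. The 70 tested non-exon members inside the windows had -0.0063, -0.067 and -0.090. All tested euchromatic non-exon bins, inside the windows or not, had -0.12, -0.16 and -0.18. The fit had 1 residual degree of freedom, from the 2 controls, so the absence of calls does not show that values were alike.

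Non-exon members inside the windows with a mean RNA-seq signal of at least 0.1 were above both controls in all 3 knockdowns more often than the background. This held for 14 of 70 bins (20%), beside 4.29% of such euchromatic bins. Over all non-exon members it held for 43 of 171 (25.1%), beside 5.06%. They were below both controls in 19 of 70 (27.1%), beside 31.3%, and in 32 of 171 (18.7%), beside 30.5%. In the 122 bins outside the windows, the 90th percentile of RNA-seq was 60.2 in rhino, 45.6 in deadlock and 48.7 in cutoff knockdown, against 3.41 and 5.72 in the control libraries. At least 2-fold higher were 38 of 157 non-exon members in rhino (24.2%, beside 1.06%), 40 of 163 in deadlock (24.5%, beside 1.28%) and 33 of 161 in cutoff knockdown (20.5%, beside 0.918%). Inside the windows these were 6 of 71 (8.45%, beside 0.247%), 6 of 72 (8.33%, beside 0.333%) and 4 of 68 (5.88%, beside 0.174%), while 2 (2.82%, beside 0.710%), 5 (6.94%, beside 0.958%) and 4 (5.88%, beside 0.923%) were at least 2-fold lower. The 2 control libraries differed by a median absolute log2 value of 0.21 in these members, beside 0.051 over all such bins. Over all non-exon members it was 0.23, beside 0.050, and its part in the shares was not tested. Of all euchromatic non-exon bins 93.7% lie inside the windows, but of the non-exon members only 40.2%. The background of all non-exon bins thus holds fewer bins of low mappability. The part of mappability in the shares over all non-exon members was not tested, so no difference is read from them.

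The largest differences above the controls were in low-mappability bins of 3L. 3L:22094001-22095000 (index 0.026) had RNA-seq of 503 in rhino, 532 in deadlock and 657 in cutoff knockdown, against 1.40 and 0.01 in the control libraries. Its neighbour 3L:22093001-22094000 (index 0.048) had 157, 167 and 227, against 0.198 and 1.16, and 3L:22550001-22551000 (index 0.052) had 491, 217 and 399, against 1.40 and 1.07. In 3L:22093001-22094000 GRO-seq was 122 in rhino knockdown and 0.1, the floor of the scale, in the control, and Pol II was 70.1 in rhino knockdown and 8.85 in the control. H3K9me3 in this bin was 58.7 in rhino knockdown and 8.87 in piwi knockdown, against 24.2 in the control. The adjoining member inside the windows, 3L:22092001-22093000 (index 0.818), had H3K9me3 of 71.9 in rhino and 14.05 in piwi knockdown, against 11.4 in the control, with small RNA of 15.7 in rhino, 6.61 in deadlock and 13.6 in cutoff knockdown, against 73.9. Its RNA-seq was 0.377, 0.181 and 0.428, against 0.264 and 0.111, so it did not share the large difference of its neighbours.

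The largest differences below the controls lay in bins where the control libraries differed from each other or that held few reads. X:1449001-1450000 had RNA-seq of 0.480 in rhino, 0.446 in deadlock and 0.423 in cutoff knockdown, against 0.290 and 20.3 in the control libraries, which lie on both sides of the knockdowns. 3L:9378001-9379000 (index 0.03) had 165 in deadlock knockdown, against 459 and 3258. In 3L:22755001-22756000 (index 0.002) rhino and deadlock knockdown had no read, against 4.52 and 27.6 in the controls, and 2R:6836001-6837000 (index 0.008) had 7.38 in cutoff knockdown, against 23.7 and 82.7.

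Nascent RNA and Pol II of exon members differed little between rhino knockdown and control. Median GRO-seq was 15.7 in rhino knockdown and 16.6 in the control, and median Pol II was 13.5 in rhino knockdown and 14.8 in the control. The log2 medians were -0.07 (-0.12 to -0.01) for GRO-seq and -0.12 (-0.14 to -0.09) for Pol II, beside 0.00 and -0.05 over all euchromatic exon bins and -0.14 and 0.01 in somatic exon bins. At least 2-fold higher in GRO-seq were 21 of 657 exon members (3.20%, beside 3.81%) and 2-fold lower 18 (2.74%, beside 4.77%). For Pol II these were 6 of 666 (0.901%, beside 0.680%) and 3 (0.450%, beside 0.123%).

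Non-exon members inside the windows had a median GRO-seq signal of 4.08 in rhino knockdown and 3.23 in the control, and a median Pol II signal of 6.33 in rhino knockdown and 4.62 in the control. The log2 medians were 0.06 (-0.03 to 0.31) and 0.11 (-0.04 to 0.29), and both intervals include 0. Somatic non-exon bins inside the windows had 0.01 and 0.28. GRO-seq was at least 2-fold higher in 16 of 69 bins (23.2%, beside 8.08%) and lower in 6 (8.70%, beside 5.09%), and Pol II was higher in 6 of 80 (7.50%, beside 0.775%) and lower in 0 (beside 0.0671%). The bins with the lowest values held 0 to 10 reads in each library. X:14446001-14447000 had 0 GRO-seq reads in rhino knockdown and 6 in the control, and X:99001-100000 had 1 Pol II read in rhino knockdown and 10 in the control.

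In both classes members carried more Pol II and more H3K9me3 than euchromatic bins of their class at large. Control Pol II over input had a median log2 value of 0.39 (0.20 to 0.55) in exon members, against -0.98 over all euchromatic exon bins and -0.78 in the 325 exon bins of Rhino-dependent germline sources. It was 0.62 (0.57 to 0.68) in the 1681 somatic exon bins, above the median of the members. Non-exon members inside the windows had a Pol II value of -0.71 (-1.05 to -0.41), against -1.78 over all such bins. Control H3K9me3 over input was -0.41 (-0.52 to -0.35) in exon members, against 0.82 in the Rhino-dependent exon bins, -0.77 over all euchromatic exon bins and -0.30 in somatic exon bins. In non-exon members inside the windows it was 0.92 (0.62 to 1.31), against 1.06 in the 602 Rhino-dependent bins, 0.20 in the 253 somatic bins and -0.83 over all. Rhino over input was -0.37 in exon members, against 0.88 in Rhino-dependent exon bins, 0.05 in somatic exon bins and -0.30 over all. In non-exon members inside the windows it was 0.46 (0.27 to 0.79), against 1.17 in Rhino-dependent bins, 0.09 in somatic bins and -0.21 over all such bins.

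**Figure D4:**
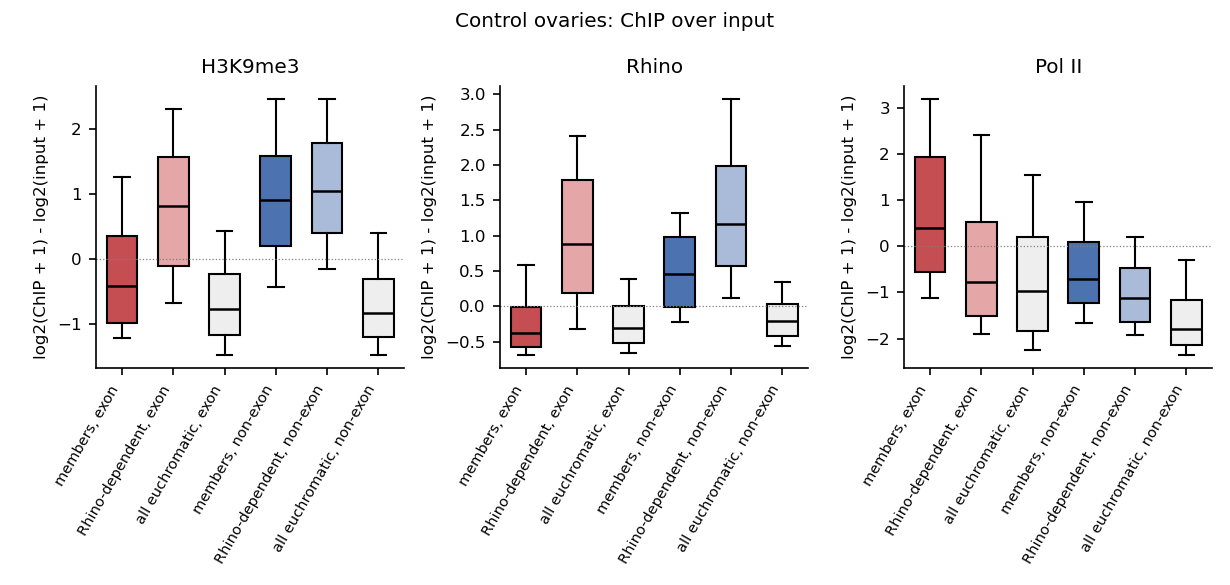
Difference of log2(signal + 1) between ChIP and input in control ovaries for H3K9me3, Rhino and Pol II (a panel each, with its own scale), in members, Rhino-dependent germline bins and all euchromatic bins. Non-exon bins are those inside the authors' windows, boxes span the quartiles with the median, and whiskers the 10th to the 90th percentile. Among the sets drawn, exon members have the highest median in Pol II (0.39), and non-exon members a median of 0.92 in H3K9me3, against -0.83 over all such bins.

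At least 2-fold over input in H3K9me3 were 90 of 666 exon members (13.5%, beside 4.79%) and 38 of 82 non-exon members inside the windows (46.3%, beside 4.09%). For Pol II these were 239 (35.9%, beside 14.8%) and 8 (9.76%, beside 2.11%), and for Rhino 39 of 667 (5.85%, beside 2.67%) and 19 (23.2%, beside 2.08%). The authors' H3K9me3 peaks covered 114 exon members (17.1%, beside 6.70%) and 28 of the 82 non-exon members (34.1%, beside 4.43%). Their Rhino peaks covered 19 exon members (2.85%, beside 0.572%) and 3 of the 82 (3.66%, beside 0.517%), and 32.3% of Rhino-dependent exon bins. Deadlock over input had a median of -0.02 in exon members and -0.04 in non-exon members inside the windows, and Cutoff over input -0.05 and 0.02. No background is set beside these medians, so they are read neither as enriched nor as not enriched.

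Rhino ChIP in the members inside the windows was lower in the non-exon class after loss of Rhino or Deadlock. The median log2 change in those 82 bins was -0.82 in rhino (-1.0 to -0.51), -0.84 in deadlock (-1.02 to -0.60), -0.31 in cutoff (-0.49 to -0.05) and -0.07 in piwi knockdown (-0.22 to 0.06), beside 0.05, 0.02, 0.19 and -0.09 over all such euchromatic bins. The 253 somatic non-exon bins inside the windows had -0.59 in rhino (-0.83 to -0.43), -0.80 in deadlock (-1.01 to -0.63), -0.04 in cutoff and 0.07 in piwi knockdown, so somatic sources were lower in rhino and deadlock knockdown as well. Rhino signal was at least 2-fold lower in 32 of the 82 member bins in rhino (39.0%, beside 11.4%) and in 34 in deadlock knockdown (41.5%, beside 14.5%), and in 37.7% and 44.4% of the somatic bins. Exon members had medians of 0.32 in rhino, 0.41 in deadlock, 0.05 in cutoff and 0.07 in piwi knockdown, beside 0.29, 0.32, 0.15 and 0.00 over all euchromatic exon bins and -0.34, -0.40, -0.01 and 0.07 in somatic exon bins.

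H3K9me3 of members was lower in piwi knockdown, more so outside exons. In non-exon members inside the windows the median signal was 9.56 in piwi knockdown and 14.7 in rhino knockdown, against 19.1 in the control. The log2 medians were -0.35 (-0.60 to -0.18) in piwi and -0.29 (-0.36 to -0.14) in rhino knockdown, beside 0.04 and 0.07 over all such bins. Somatic non-exon bins inside the windows had -0.08 (-0.13 to -0.04) in piwi and -0.30 (-0.37 to -0.25) in rhino knockdown, so in rhino knockdown they were as low as the members. At least 2-fold lower in piwi knockdown were 18 of 82 bins (22.0%, beside 0.650%), and in rhino knockdown 7 (8.54%, beside 0.561%). In each knockdown 1 bin was at least 2-fold higher (1.22%, beside 0.131% in piwi and 1.77% in rhino knockdown). Exon members had a median of 7.40 in piwi and 8.66 in rhino knockdown, against 8.14 in the control, with log2 medians of -0.08 (-0.11 to -0.06) and -0.01 (-0.05 to 0.04), beside 0.03 and 0.17. Of 666 exon members, 44 (6.61%, beside 0.825%) were at least 2-fold lower in piwi knockdown and 23 (3.45%, beside 0.610%) in rhino knockdown. At least 2-fold higher were 0 (beside 0.108%) and 13 (1.95%, beside 5.77%).

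**Figure D5:**
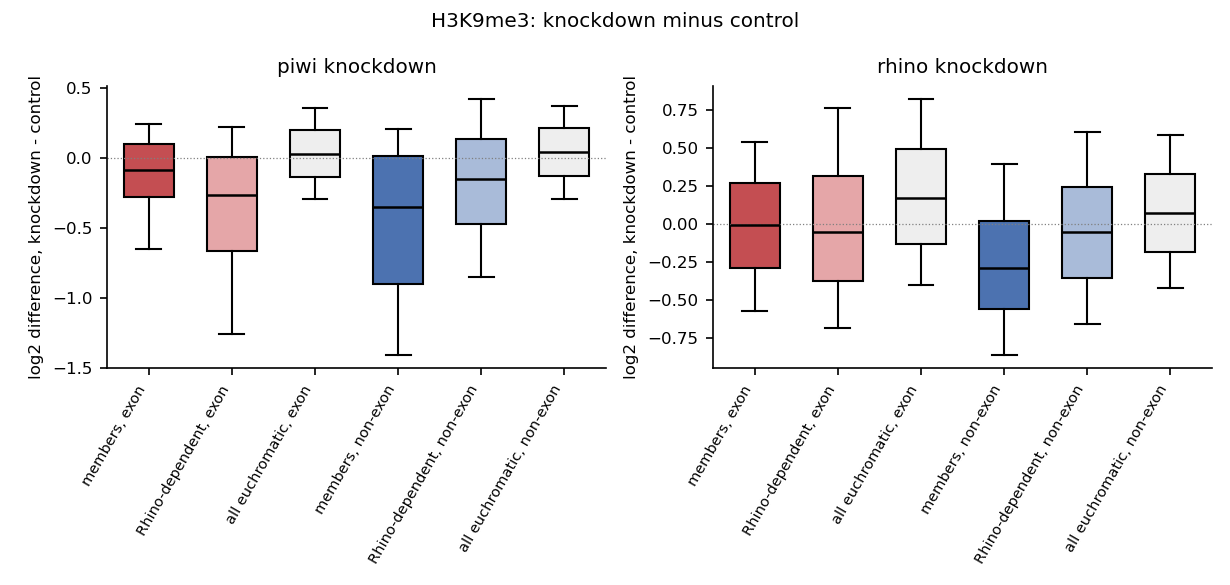
Difference of log2(signal + 1) in H3K9me3 between piwi or rhino knockdown and control (a panel each, with its own scale), in members, Rhino-dependent germline bins and all euchromatic bins. Non-exon bins are those inside the authors' windows, boxes span the quartiles with the median, and whiskers the 10th to the 90th percentile. Among the sets drawn, non-exon members have the lowest medians, -0.35 in piwi and -0.29 in rhino knockdown.

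Much of the euchromatin carries little H3K9me3, so members in the authors' H3K9me3 peaks were set beside other peak bins. The 114 exon members in peaks had a log2 median of -0.38 (-0.58 to -0.31) in piwi knockdown, against -0.21 in all 3442 euchromatic exon peak bins, and 33 of them (28.9%) were at least 2-fold lower, against 7.67%. The 28 non-exon members in peaks inside the windows had -0.83 (-1.41 to -0.58) in piwi knockdown, against -0.19 in 2616 such bins, and 11 (39.3%) were at least 2-fold lower, against 7.88%. In rhino knockdown the medians were -0.37 and -0.47 in the members, against -0.24 and -0.23 in all peak bins. Rhino-dependent bins, taken in peaks or not, had medians of -0.26 in exons and -0.15 outside them in piwi knockdown. Of these, 43.1% of the exon bins and 32.4% of the non-exon bins inside the windows are peaks. Their medians therefore do not compare with those of members in peaks.

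Among single loci, one of the largest decreases of H3K9me3 in piwi knockdown was in an exon. The exon bin X:18679001-18680000 had 4.49 in piwi knockdown and 14.5 in rhino knockdown, against 80.5 in the control, and small RNA of 28.5 in rhino, 14.01 in deadlock and 22.0 in cutoff knockdown, against 51.2. In the exon stretch 3R:21149001-21155000, with 3 of its 5 members in H3K9me3 peaks and a median mappability of 0.142, mean H3K9me3 was 26.5 in piwi and 58.4 in rhino knockdown, against 74.7 in the control. Its small RNA was 0.846 times the control in rhino, 0.732 times in deadlock and 0.681 times in cutoff knockdown. At X:8001-10000 mean H3K9me3 was 103 in piwi and 196 in rhino knockdown, against 210.0 in the control. The other bins with the largest changes, such as 3R:1277001-1278000 with 0.1 in piwi knockdown and 46.4 in the control, had a mappability index of 0.052 or less, apart from 3L:22092001-22093000.

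The other bins with the largest small RNA changes had a mappability index of 0.026 or less and held at most 6 reads in the control. X:11541001-11542000 (index 0.005) had 0 reads in deadlock and in cutoff knockdown and 3 in the control. 2L:14807001-14808000 had 0 reads in cutoff knockdown and 6 in the control, and 2L:15450001-15451000 had 84 reads in cutoff knockdown and 2 in the control, both at an index of 0.026.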

How the data were processed

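The authors deposited 1 table of 1 kb bins on dm3. The submitters' processing notes list bedtools 2.16.1, SAMtools 0.1.16, GSNAP, Bowtie 0.12.7 and cutadapt 1.0, with no roles given. The deposited values are a normalised signal: after an offset of 0.1 (RNA-seq 0.01) was subtracted and the mappability index divided out, 1 scale factor for each library turned them into whole reads, within 0.1 read, in 100% of bins under 500 reads for all 21 columns of single libraries. A further 6 columns are averages that the authors formed, each of 2 libraries. The deposited counts of genomic DNA reads were not used in any comparison. Strands and small RNA sizes were not separated, and what the small RNA totals include is not stated in the sources used here. Libraries of capped RNA and H3K4me2 were not analysed here.

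Signals were compared as log2(signal + 1) with pandas 2.3.3 and scipy 1.17.1. Medians over bins have distribution-free 95% binomial intervals, which describe bins that are not independent and not the spread between animals. Ratios of summed reads have exact Clopper-Pearson 95% intervals for counting error only. A 2-fold count used bins with a mean signal of at least 1 (RNA-seq 0.1). RNA-seq was fitted with limma 3.58.1 in R 4.3.3 over all bins with a mean of at least 0.1 on 5 libraries in 4 groups. On simulated data of low noise the fit found all 200 bins given a change in rhino knockdown, and 40 unchanged ones. It also called 41 bins in deadlock and 11 in cutoff knockdown, where no change was simulated. At noise matched to the control libraries it found none of the 200, so the fit could not detect such changes. The background is all euchromatic bins outside chromosome 4 and major clusters. Rhino-dependent bins met the same rule with a rhino ratio of at most 0.2. Somatic bins had the same minimum control small RNA and a somatic ratio of at least 0.125.

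Named were the 5 exon and 5 non-exon stretches with the highest control small RNA in a bin, stretches of at least 5 members, the 2 highest and 2 lowest members per comparison with a mean signal of at least 5 (RNA-seq 1), and the bins next to each threshold. Single bins inside 3L:22744001-22756000 are named outside this rule, after their values were seen. Members and lists were chosen with earlier results of these data known. No sequences or gene names are given, since no dm3 genome or annotation was used here.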

Additional observations from a re-analysis of the deposited data

How the results depend on the processing

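Alternatives were set against medians over all 667 exon and all 204 non-exon members, whereas the results above give non-exon medians for the 82 bins inside the windows. Over all 204 bins the non-exon medians of log2(signal + 1) differences were -1.07 for small RNA in deadlock and -0.91 in cutoff knockdown, 0 for GRO-seq, for Pol II and for RNA-seq in each knockdown, -0.23 for H3K9me3 in rhino and -0.26 in piwi knockdown, and over input 1.31 for H3K9me3, -0.52 for Pol II and 0.58 for Rhino. Of 221 recomputed values, 175 stayed within the interval of the median over all members or, for RNA-seq calls, at a count of 0, 41 moved outside it and 5 changed sign. Taking 1 bin per stretch kept 24 of 24 values within it, though exon GRO-seq came to -0.043 with an interval that includes 0 (-0.11 to 0.0020).

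With a control small RNA of at least 20, exon members had small RNA of 0.22 in deadlock and 0.13 in cutoff knockdown, GRO-seq of 0, H3K9me3 of -0.071 in rhino and -0.13 in piwi knockdown, and over input H3K9me3 of -0.14, Pol II of 1.01 and Rhino of -0.29. The 136 non-exon members left then had 1.62 for H3K9me3 and 0.84 for Rhino over input, against 1.31 and 0.58 over all 204. The exon RNA-seq medians changed sign under this limit for rhino (0.019) and cutoff knockdown (0.0072) and came to -0.019 for deadlock knockdown. The cause was not tested. With a rhino ratio above 0.5, small RNA was 0.55 for exon and -0.36 for non-exon members in deadlock knockdown, and 0.58 and -0.027 in cutoff knockdown.

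Leaving out each control RNA-seq library gave exon medians from -0.17 to 0.019 for rhino knockdown, from -0.21 to -0.026 for deadlock knockdown and from -0.20 to 0.021 for cutoff knockdown. Without the second library, the medians for rhino and cutoff knockdown changed sign. Without either library the limma fit has no residual degrees of freedom, so no test was run.

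Small RNA was also scaled to 183 bins of flamenco, a somatic cluster. With factors from summed reads, deadlock knockdown came to 0.13 for exon members. With factors from summed signal, deadlock knockdown came to -0.016 for exon members, a change of sign, and to -1.39 for non-exon members. The summed signal was computed first and replaced by reads after its result was seen, so both are given.

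Non-exon members with a mappability of at least 0.5 had -0.80 for small RNA in deadlock knockdown, 0.15 for GRO-seq, 0.11 for Pol II, 0.77 for H3K9me3 over input, and RNA-seq of -0.0063 in rhino, -0.048 in deadlock and -0.083 in cutoff knockdown. Inside the authors' windows, an alternative chosen after seeing the data and the one the results give, they had 0.062 for GRO-seq, 0.11 for Pol II, 0.92 for H3K9me3 over input, and RNA-seq of -0.0094, -0.050 and -0.074 in the same knockdowns.

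A pseudocount of 5 gave exon medians of -0.057 for H3K9me3 in piwi knockdown, -0.30 for H3K9me3 over input and -0.28 for Rhino over input, and non-exon medians of 0.87 for H3K9me3 and -0.26 for Pol II over input. A pseudocount of 0.1 gave -0.40 for exon Rhino, 1.44 for non-exon H3K9me3 and -0.84 for non-exon Pol II over input. Requiring an input of at least 25% of its median gave -0.79 for non-exon Pol II over input.

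No paired analysis was possible because the libraries compared share no replicate number in separate columns: averaged groups carry none, and every other knockdown has 1 library. Limma called 0 bins under each alternative run, which says nothing about stability with 1 residual degree of freedom. Depth limits the non-exon bins outside the windows, with a median of 5 small RNA reads in the control.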
